A study of Mus musculus with 8 samples.

Results

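The 9 genes described here encode ion channels, receptors and secreted mediators through which skin takes part in itch and pain. They were taken by symbol from the deposited gene table, which lists 18901 genes, and all 9 were found: the mediator genes Edn1 and Artn, the receptor genes Ednra, Ednrb, F2rl1 and Hrh1, and the channel genes Trpv1, Trpv3 and Trpv4. The sequenced RNA came from the cheek skin of 4 mice of genotype TBX20fl/fl;K14-Cre, labelled as the tbx20 k14 conditional knockout, and of 4 TBX20fl/fl mice, labelled tbx20 flox/flox. All were 7-week-old females whose left cheek had received an intradermal dose of 10 µg of brain natriuretic peptide (BNP), followed by a 30 min recording of behaviour and tissue collection 5 h later. Both groups carried the floxed Tbx20 alleles and both received BNP, so the comparison is of genotype after BNP, and no vehicle-injected skin was analysed here. Cre was driven by the K14 promoter, which is active in basal keratinocytes, while the RNA came from whole skin, in which fewer cells of a type and less RNA per cell cannot be told apart.

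Itch and pain in skin begin at the endings of sensory neurons, whose cell bodies lie outside the skin in the ganglia. Keratinocytes, mast cells and vessels release mediators such as endothelin-1, histamine and proteases, and these act on G protein-coupled receptors, which in neurons open or sensitise channels of the TRP family. Keratinocytes also carry TRP channels of their own, and the growth factor artemin maintains and sensitises a class of sensory neurons.

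Total counts were 19260856 to 19880654 for the knockout genotype and 16056282 to 19617762 for the controls. Tbx20 itself had 0 to 2.09 estimated counts in the former and 0 to 3.01 in the latter, so its loss could not be detected at this depth in whole skin. The 10 keratinocyte markers summed to 3444 to 4946 FPKM and the 10 skeletal muscle markers to 10229.7 to 19704 FPKM over the 8 mice, so the samples held muscle beside epidermis. TBX20fl/fl mouse 2 stood apart from the other mice: its TMM scaling factor, which corrects a library for its composition, was 0.735 against 1.01 to 1.07 in the others, and the deviation of its genes from their mean fell with transcript length (Spearman rho -0.78 across 13298 genes). A trend with length was also present in other mice, with a rho of -0.55 in TBX20fl/fl mouse 3 and of 0.47 and 0.45 in TBX20fl/fl;K14-Cre mice 3 and 4. The transcript lengths implied by counts and FPKM had a median of 3164 bases for the 9 genes and 2732 bases for all genes tested. Many values below are therefore also given without mouse 2 or after removal of the trend with length from all 8 mice, and the part of this trend in the results was not tested.

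In edgeR's quasi-likelihood test, with p-values adjusted by the Benjamini-Hochberg method over 17124 genes, 0 genes passed the threshold of 0.05 (0% of all genes), and so 0 of the 9 genes passed. The smallest adjusted p-value was 0.498. At an unadjusted p under 0.05 there were 1431 genes (8.36%), of which 419 were higher in TBX20fl/fl;K14-Cre mice (2.45% of all genes), and 1 of the 9 genes, F2rl1, was among them. DESeq2's Wald test called 10 genes (0.0609%) and limma on log2(FPKM + 1) called 0, with 1046 at an unadjusted p under 0.05 (6.55%), among them 2 of the 9 genes, Ednrb (limma unadjusted p = 0.0195, adjusted p = 0.457) and F2rl1 (limma unadjusted p = 0.0349, adjusted p = 0.457). None of the 9 genes was called by either. The fitted log2 fold change, TBX20fl/fl;K14-Cre over TBX20fl/fl, was above 0 for 7 of the 9 genes, as it was for 52.5% of all genes. Its median over the 9 genes was 0.45 against 0.03 over all genes, and 0.33 against 0.02 with the length trend removed. In FPKM (fragments scaled to transcript length and library size), the 4 mice of each genotype did not overlap for F2rl1 and Ednra, both higher in TBX20fl/fl;K14-Cre mice, as was the case for 5.45% of all genes. The same pair did not overlap without TBX20fl/fl mouse 2 (5.65% of all genes), and 0 of the 9 were lower without overlap (1.92%). Leaving out some other mice raised the count together with the share over all genes: it was 4 without TBX20fl/fl;K14-Cre mouse 1 (10.1% of all genes), 3 without TBX20fl/fl mouse 1 (10.8%) and 5 without TBX20fl/fl mouse 4 (12.2%). It stayed at 2 without TBX20fl/fl;K14-Cre mouse 2, 3 or 4 and without TBX20fl/fl mouse 3. TMM-scaled CPM is not divided by transcript length but still carries the trend with length of each mouse. On this scale only Ednra was higher without overlap (3.65% of all genes), and with the length trend removed 0 of the 9 were (2.77%). Of all genes whose FPKM did not overlap, 73.9% were higher in TBX20fl/fl;K14-Cre mice, against 52.7% on TMM-scaled CPM, and the median difference of all genes on log2(FPKM + 1) was 0.12.

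**Figure D1:**
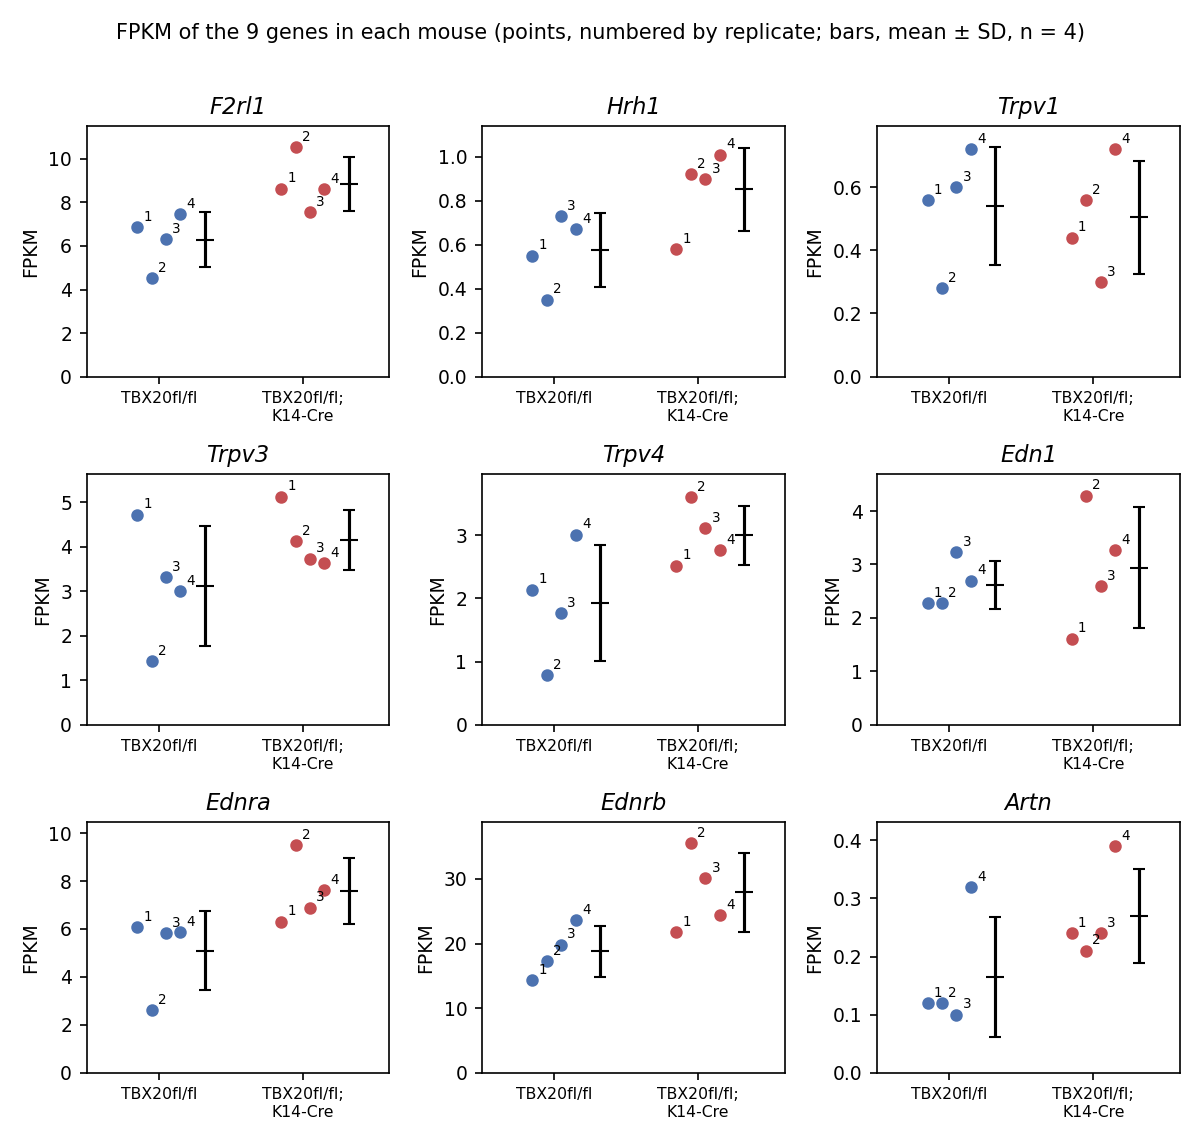
FPKM of each of the 9 genes (vertical axes, from 0) in the 4 TBX20fl/fl mice (blue) and the 4 TBX20fl/fl;K14-Cre mice (red), with points numbered by replicate and black bars giving the mean ± SD. F2rl1 and Ednra show separate groups, TBX20fl/fl mouse 2 is the lowest mouse for Trpv1, Trpv3, Trpv4, Ednra, Hrh1 and F2rl1, and Trpv1 and Edn1 overlap widely.

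Endothelin-1, the product of Edn1, is a peptide from endothelial cells and keratinocytes that constricts vessels and, in skin, evokes itch and pain. Edn1 (chr13:42301476-42307990, plus strand, GRCm38) was at 1.61, 4.29, 2.60 and 3.27 FPKM in TBX20fl/fl;K14-Cre mice 1 to 4 and at 2.27, 2.28, 3.23 and 2.70 FPKM in TBX20fl/fl mice 1 to 4. The knockout mice spanned the whole range of the controls and went beyond it at both ends. The means were 2.94 ± 1.13 and 2.62 ± 0.45 FPKM (SD, n = 4 each), and the exact permutation test gave p = 0.657. In edgeR the log2 fold change was -0.0026 (SE 0.29, adjusted p = 0.997), and its sign changed with the scaling, to 0.11 with the length trend removed. Exons of Edn1 overlap those of Gm47118 on the opposite strand, and strandedness of the counting is not stated, so reads of this pair cannot be told apart.

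Artemin, from Artn (chr4:117925908-117930795, minus strand), is a ligand of the GDNF family that acts through GFRA3 and RET on sensory neurons. It was the lowest of the 9 genes, at 0.24, 0.21, 0.24 and 0.39 FPKM in TBX20fl/fl;K14-Cre mice 1 to 4 and 0.12, 0.12, 0.10 and 0.32 FPKM in TBX20fl/fl mice 1 to 4. In each group the fourth mouse stood above the other three, and the highest control made the groups overlap. The values rest on 10 to 17.89 and 4 to 14 estimated counts. Its log2 fold change of 0.61 was the highest of the 9 but had the largest standard error (0.42, edgeR adjusted p = 0.513), and the exact permutation p on FPKM was 0.114. The log2 fold change was 1.09 without TBX20fl/fl mouse 4, 0.40 without TBX20fl/fl;K14-Cre mouse 4 and 0.43 without TBX20fl/fl mouse 1.

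The endothelin receptors were the members of the receptor group with the most reads. Ednra (chr8:77663029-77724452, minus strand) encodes the ETA receptor, found on vascular smooth muscle and on sensory neurons, where it mediates endothelin-1 evoked itch and pain. Its FPKM was 6.31, 9.51, 6.89 and 7.63 in TBX20fl/fl;K14-Cre mice 1 to 4 and 6.08, 2.61, 5.83 and 5.87 in TBX20fl/fl mice 1 to 4. Every knockout mouse was above every control mouse, with a gap of 6.08 to 6.31 FPKM between the nearest mice. The means were 7.58 ± 1.39 and 5.10 ± 1.66 FPKM (SD, n = 4 each), and the exact permutation p was 0.0286, the smallest that 4 against 4 mice allows, or 0.388 after Benjamini-Hochberg adjustment over all genes. In edgeR the log2 fold change was 0.45 (SE 0.20, unadjusted p = 0.0506, adjusted p = 0.498). Without TBX20fl/fl mouse 2 it was 0.31, the FPKM ratio of means went from 1.49 to 1.28, and the exact permutation p was 0.0571. Exons of Ednra overlap 4933431K23Rik on the opposite strand, with which it shares 46 of 5427 stretches of 50 bases (0.848%).

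Ednrb (chr14:103814615-103844508, minus strand) encodes the ETB receptor, which is required for melanocyte development and is also present on endothelial and glial cells. It was the most abundant of the 9 genes, at 21.82, 35.51, 30.19 and 24.35 FPKM in TBX20fl/fl;K14-Cre mice 1 to 4 and 14.34, 17.34, 19.85 and 23.60 FPKM in TBX20fl/fl mice 1 to 4. A single pair overlapped, knockout mouse 1 lying below control mouse 4. The means were 28.0 ± 6.13 and 18.8 ± 3.92 FPKM (SD, n = 4 each; exact permutation p = 0.0571). edgeR gave a log2 fold change of 0.46 (SE 0.22, unadjusted p = 0.0615, adjusted p = 0.498), 0.26 with the length trend removed and 0.54 without TBX20fl/fl mouse 2.

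The order of the knockout mice in Ednrb was that of the markers of pigment cells and hair follicles, and Trpv4 had the same order. The 10 melanocyte markers, among them the melanin synthesis genes Tyr, Tyrp1 and Dct, summed to 18.5, 83.7, 31.4 and 24.6 FPKM in TBX20fl/fl;K14-Cre mice 1 to 4 and to 21.6, 15.95, 25.8 and 18.2 FPKM in TBX20fl/fl mice 1 to 4. All 10 had a log2 fold change above 0 (median 1.23, and 0.68 in the fit blocked by replicate number) and 0 passed the test or had an unadjusted p under 0.05. The log2 fold change was 0.18 for Mitf, 0.26 for Sox10, 0.31 for Kit and 1.15 to 3.11 for the others. Kit and Sox10 also stand in the mast cell and Schwann cell lists. The 9 hair follicle markers in the table, such as the inner root sheath keratin Krt71, summed to 43.6, 698.1, 123.1 and 54.3 FPKM in the knockout mice and to 37.7, 38.1, 61.5 and 34.5 FPKM in the controls, with 9 of 9 higher (median 2.02, and 0.98 with the block), 7 at an unadjusted p under 0.05 (2.45% of all genes in that direction) and 0 called. Knockout mouse 2 was highest and mouse 3 next in Ednrb and in both sums, and mouse 1 was lowest in all of them. Among the controls the order differed, since Ednrb was highest in mouse 4 and both sums in mouse 3. The ranges of both sums overlapped between the genotypes, and knockout mouse 2 held the highest value of each. No listed marker of either kind was at 0 in all mice. The 10 endothelial cell markers summed to 131, 93.0, 145 and 140 FPKM in TBX20fl/fl;K14-Cre mice 1 to 4 and to 91.3 to 134 FPKM in the controls. The 10 markers of Schwann cells, which are glial, summed to 237, 206, 281 and 306 FPKM and to 185 to 262 FPKM in the same order. Knockout mouse 2 was the lowest knockout mouse in the endothelial and the Schwann cell sums. The part of these cells in the Ednrb values was not tested.

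**Figure D2:**
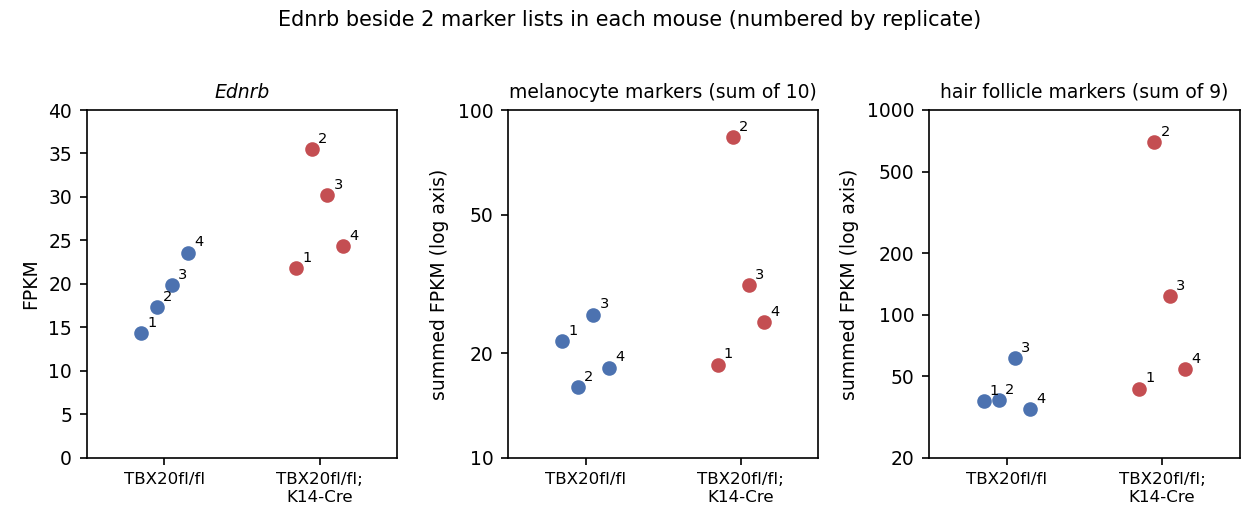
Ednrb in FPKM (left, linear axis from 0) beside the summed FPKM of 10 melanocyte markers (middle, log axis) and of 9 hair follicle markers (right, log axis), each point a mouse numbered by replicate, blue for TBX20fl/fl and red for TBX20fl/fl;K14-Cre. Knockout mouse 2 is highest in all 3 panels, at 35.51, 83.7 and 698.1.

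F2rl1 (chr13:95511718-95525240, minus strand) encodes PAR2, a receptor of keratinocytes and sensory neurons that is switched on when proteases such as tryptase, kallikreins or cathepsin S cut its outer end. It was at 8.64, 10.55, 7.56 and 8.62 FPKM in TBX20fl/fl;K14-Cre mice 1 to 4 and at 6.88, 4.52, 6.30 and 7.46 FPKM in TBX20fl/fl mice 1 to 4. The groups did not overlap, but knockout mouse 3 at 7.56 and control mouse 4 at 7.46 nearly met, and on TMM-scaled CPM they crossed (19.3 against 19.4). The means were 8.84 ± 1.25 and 6.29 ± 1.27 FPKM (SD, n = 4 each), with an exact permutation p of 0.0286 and 0.388 after adjustment over all genes. The edgeR log2 fold change of 0.35 had the smallest standard error of the 9 (0.15, unadjusted p = 0.0412, adjusted p = 0.498). It was nearly the same with the length trend removed (0.34) and without TBX20fl/fl mouse 2 (0.32), while the exact permutation p on FPKM without that mouse was 0.0571.

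Hrh1 (chr6:114397936-114483298, plus strand) encodes the histamine H1 receptor, the target of classical antihistamines, on vessels and on a class of itch neurons. It was at 0.58, 0.92, 0.90 and 1.01 FPKM in TBX20fl/fl;K14-Cre mice 1 to 4 and at 0.55, 0.35, 0.73 and 0.67 FPKM in TBX20fl/fl mice 1 to 4. Knockout mice 2, 3 and 4 were above all controls and knockout mouse 1 was among them. These values rest on 37 to 62 and 17 to 42 estimated counts, and edgeR gave a log2 fold change of 0.45 (SE 0.24, adjusted p = 0.498). The exact permutation p on FPKM was 0.0857.

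Among the channels, Trpv4 (chr5:114622152-114658435, minus strand) forms an osmosensitive and warmth-sensitive calcium channel of keratinocytes and other skin cells. It was at 2.52, 3.60, 3.11 and 2.77 FPKM in TBX20fl/fl;K14-Cre mice 1 to 4 and at 2.14, 0.78, 1.77 and 3.01 FPKM in TBX20fl/fl mice 1 to 4. Control mouse 4 lay within the knockout group and the other controls lay below it. Control mouse 2 was at 36.4% of the median of the other controls, the lowest such share of the 9 genes. The edgeR log2 fold change was 0.52 (SE 0.28, adjusted p = 0.498) with all mice, 0.33 without control mouse 2 and 0.78 without control mouse 4, and the exact permutation p on FPKM was 0.0857.

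Trpv3 forms the warmth-activated channel of keratinocytes, in which gain-of-function mutations cause itch and hair loss in mice. The deposited table places Trpv3 and its neighbour Trpv1 on an unplaced scaffold with mixed coordinates, and in the GENCODE annotation of GRCm38 they lie on chromosome 11 at chr11:73267388-73300363 and chr11:73234292-73261242, both on the plus strand. Trpv3 was at 5.12, 4.12, 3.73 and 3.63 FPKM in TBX20fl/fl;K14-Cre mice 1 to 4 and at 4.72, 1.42, 3.32 and 3.00 FPKM in TBX20fl/fl mice 1 to 4. Control mouse 1 was higher than 3 of the knockout mice, so the groups overlapped. Its log2 fold change of 0.31 (SE 0.26, edgeR adjusted p = 0.544) was 0.13 without control mouse 2, 0.55 without control mouse 1, 0.17 without knockout mouse 1 and 0.02 with the length trend removed; its implied transcript of 5595 bases was the longest of the 9. The 10 keratinocyte markers had a median log2 fold change of 0.11, with 8 higher and 2 lower and 0 called.

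Trpv1, the capsaicin receptor of heat-sensing and itch-sensing neurons, was at 0.44, 0.56, 0.30 and 0.72 FPKM in TBX20fl/fl;K14-Cre mice 1 to 4 and at 0.56, 0.28, 0.60 and 0.72 FPKM in TBX20fl/fl mice 1 to 4. The groups covered nearly the same range, from 21 to 50.99 and 16 to 49 estimated counts. The log2 fold change was -0.22 (SE 0.31, edgeR adjusted p = 0.692), and Trpv1 and Edn1 were the members whose value was not above 0. It was -0.34 with the length trend removed and -0.35 without TBX20fl/fl mouse 2, and ranged from -0.44 without TBX20fl/fl;K14-Cre mouse 4 to -0.04 without mouse 3 of that genotype. The exact permutation p on FPKM was 0.886. The 10 sensory neuron markers summed to 3.13 to 4.36 FPKM in the knockout mice and 3.46 to 3.79 FPKM in the controls. Of the 8 tested, 3 were higher and 5 lower (median log2 fold change -0.40, and -0.25 with the length trend removed, where 2 of 8 were higher), with 0 called and 1 at an unadjusted p under 0.05, and the nociceptor sodium channel Scn10a and the itch receptor Mrgprd were below the count filter.

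**Figure D3:**
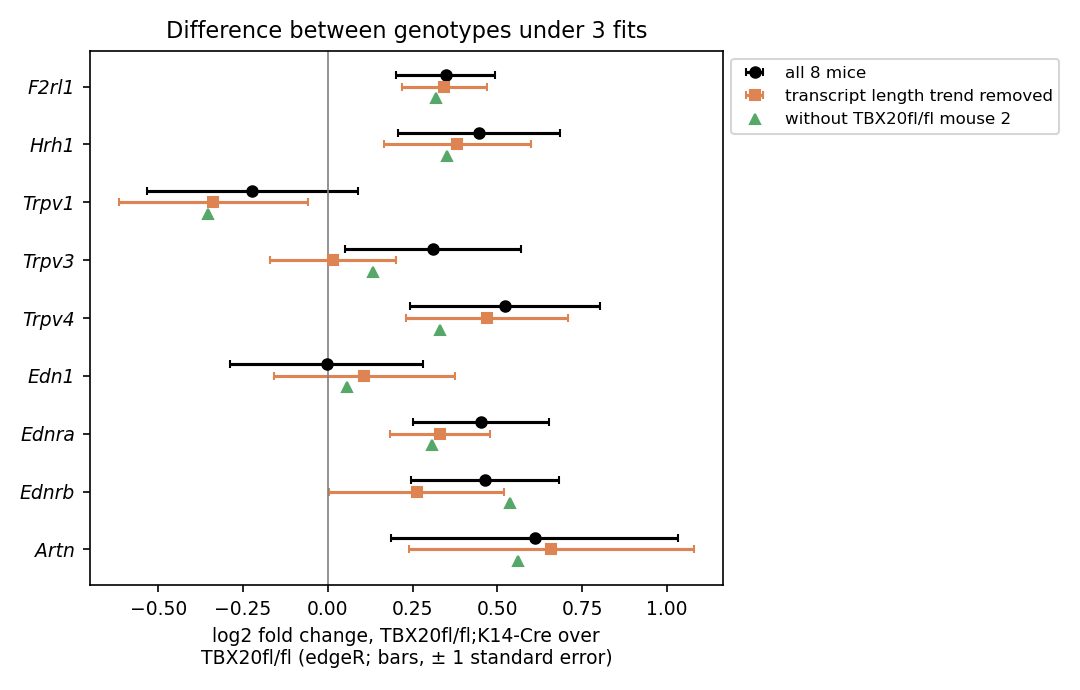
Log2 fold change of the 9 genes, TBX20fl/fl;K14-Cre over TBX20fl/fl, from edgeR with all 8 mice (black circles), with the transcript length trend removed (orange squares) and without TBX20fl/fl mouse 2 (green triangles); bars are ± 1 standard error for the first and the second of these. Trpv3 moves from 0.31 to 0.02 with the length trend removed, F2rl1 stays at 0.32 to 0.35, and Edn1 lies between -0.0026 and 0.11.

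Because FPKM is scaled by length, levels could also be compared between the genes. By mean FPKM over the 8 mice the order was Ednrb (23.4 ± 6.84, SD), F2rl1 (7.57 ± 1.79), Ednra (6.34 ± 1.94), Trpv3 (3.63 ± 1.14), Edn1 (2.78 ± 0.81), Trpv4 (2.46 ± 0.89), Hrh1 (0.714 ± 0.222), Trpv1 (0.522 ± 0.170) and Artn (0.217 ± 0.103). Of the 8 neighbouring pairs, 5 kept their order in 8 of 8 mice, for which the exact sign-flip test on log2(FPKM + 1) gave its smallest p of 0.00781 (adjusted p = 0.0125 over the 8 pairs). Hrh1 was above Trpv1 in 6 of 8 mice (exact sign-flip test, adjusted p = 0.0417, and 0.0714 without TBX20fl/fl mouse 2). Trpv3 and Edn1 (6 of 8 mice, exact sign-flip adjusted p = 0.205) and Edn1 and Trpv4 (5 of 8 mice, adjusted p = 0.359) did not differ beyond their spread.

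**Figure D4:**
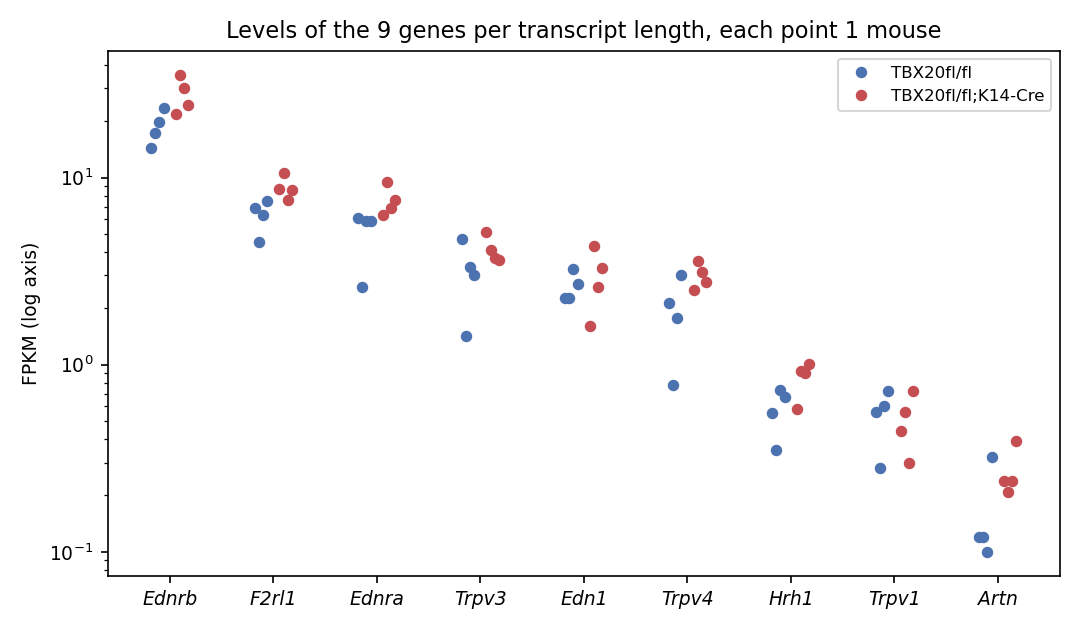
FPKM (log axis) of the 9 genes in order of their mean over all mice, each point a mouse, blue for TBX20fl/fl and red for TBX20fl/fl;K14-Cre. Ednrb lies above the rest in every mouse, Trpv3, Edn1 and Trpv4 share a range, and Hrh1, Trpv1 and Artn lie near or below 1 FPKM.

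Ratios of genes within a mouse do not depend on the scaling of its library. The ratio of Ednrb to Ednra in FPKM was 3.46, 3.73, 4.38 and 3.19 in TBX20fl/fl;K14-Cre mice 1 to 4 and 2.36, 6.64, 3.40 and 4.02 in TBX20fl/fl mice 1 to 4, with the knockout mice inside the range of the controls. The log2 difference of this ratio was -0.06 (exact permutation p = 0.857), and its sign depended on single mice, at 0.20 without TBX20fl/fl mouse 2, 0.0045 without TBX20fl/fl;K14-Cre mouse 4 and -0.29 without TBX20fl/fl mouse 1. The ratio of Trpv3 to Trpv4 was 1.14 to 2.03 in the knockout mice and 0.997 to 2.21 in the controls (log2 difference -0.26, exact permutation p = 0.457). This difference was -0.51 with the length trend removed (exact permutation p = 0.314), and ranged from -0.50 without TBX20fl/fl mouse 4 and -0.44 without TBX20fl/fl;K14-Cre mouse 1 to -0.17 without TBX20fl/fl;K14-Cre mouse 2 and -0.12 without TBX20fl/fl mouse 1. The ratio of the ligand Edn1 to its receptor Ednra was 0.255, 0.451, 0.377 and 0.429 in the knockout mice and 0.373, 0.874, 0.554 and 0.460 in the controls. Each knockout mouse was below the control mouse of the same number, but the groups overlapped, with a log2 difference of -0.54 (exact permutation p = 0.143, adjusted p = 0.429 over the 3 ratios). It was -0.28 with the length trend removed, -0.31 without TBX20fl/fl mouse 2 (exact permutation p = 0.343) and -0.71 without TBX20fl/fl mouse 1 (exact permutation p = 0.0286).

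The remaining genes of these pathways were followed in 5 lists, in each of which 0 genes passed the test. Of 18 other sensory channels tested, 12 were higher and 6 lower in TBX20fl/fl;K14-Cre mice, with a median log2 fold change of 0.32 that was 0.02 with the length trend removed, where 9 of 18 were higher, and 0.18 without TBX20fl/fl mouse 2. The smallest p-values in that list were those of the calcium channel gene Trpv6 (log2 fold change 0.68 ± 0.27, SE) and of P2rx7, an ATP-gated channel (0.57 ± 0.28). The cold and irritant channels Trpm8 and Trpa1 and the acid-sensing channel Asic3 were below the count filter. All 8 other endothelin system genes were higher (median 0.34, 0.12 without TBX20fl/fl mouse 2, and 0.13 with the length trend removed, where 5 of 8 were higher). The log2 fold change was only 0.009 for Edn3 and 0.004 for Plcb4, and it was above 0 for 52.5% of all genes. Edn2, which encodes a further endothelin, had a log2 fold change of 1.79 ± 0.93 on 2 to 58 estimated counts, at 0.11 to 2.08 FPKM in the knockout mice and 0.07 to 0.26 FPKM in the controls. Gnaq, a G protein subunit through which endothelin receptors signal, had 0.43 ± 0.26, and 0.08 with the length trend removed.

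Of 12 other protease and histamine system genes, 4 were higher and 8 lower (median -0.22, -0.04 with the length trend removed, where 6 of 12 were higher, and -0.06 without TBX20fl/fl mouse 2). At an unadjusted p under 0.05 (8.36% of all genes) there were 3, of which Ctss and Hdc had lower values in the knockout mice and St14, named after its value was seen, had higher ones. Ctss, whose product cathepsin S is a protease that cuts PAR2, was at 123.4 to 184.3 FPKM in the knockout mice and 165.4 to 311.3 FPKM in the controls (log2 fold change -0.89, SE 0.28, edgeR adjusted p = 0.498), and its log2 fold change was -0.50 with the length trend removed. Hdc, the enzyme that makes histamine, was at 6.01 to 15.0 and 11.4 to 22.6 FPKM (log2 fold change -0.90, SE 0.29, edgeR adjusted p = 0.498). St14, whose product matriptase is a membrane-bound protease of epithelia, was at 16.1 to 23.1 and 6.41 to 15.6 FPKM (log2 fold change 0.50, SE 0.21, edgeR adjusted p = 0.498). The 10 neutrophil markers summed to 221 to 426 FPKM in the knockout mice and 446 to 1142 FPKM in the controls (9 of 10 lower, 6 of them at an unadjusted p under 0.05, median log2 fold change -0.94). For this and the next marker counts, the share over all genes in either direction was 8.36%. The 10 mast cell markers summed to 506 to 563 and 618 to 916 FPKM (8 of 10 lower, 6 of them at an unadjusted p under 0.05, median -0.73, and -0.38 with the length trend removed, where 4 of 10 were higher). The 10 macrophage markers, of another cell type that makes cathepsin S, summed to 1188 to 1782 and 1373 to 2564 FPKM (5 higher and 5 lower, 2 of these at an unadjusted p under 0.05, median -0.01). The part of these cells in the Ctss and Hdc values was not tested.

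Of 16 other neurotrophic factors and receptors, 10 were higher and 6 lower (median 0.18, 0.05 with the length trend removed, 0.09 without TBX20fl/fl mouse 2 and 0.07 without TBX20fl/fl;K14-Cre mouse 4). The neurotrophin-3 receptor gene Ntrk3 (1.02 ± 0.42, SE) and the cell adhesion gene Ncam1 (0.61 ± 0.26) had the smallest p-values. With the length trend removed these were 0.83 and 0.31. Of 19 genes for neuropeptides, kinins, serotonin and their receptors, 5 were higher and 14 lower (median -0.44, -0.16 with the length trend removed or without TBX20fl/fl mouse 2, and -0.28 without TBX20fl/fl;K14-Cre mouse 3). The kinin B1 receptor gene Bdkrb1 was at 0.15 to 0.29 FPKM in the knockout mice and 0.19 to 0.68 FPKM in the controls (log2 fold change -1.38, SE 0.50, on 4 to 17 estimated counts). Calcb, one of the genes for calcitonin gene-related peptide, had a log2 fold change of -0.54 (SE 0.23).

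**Figure D5:**
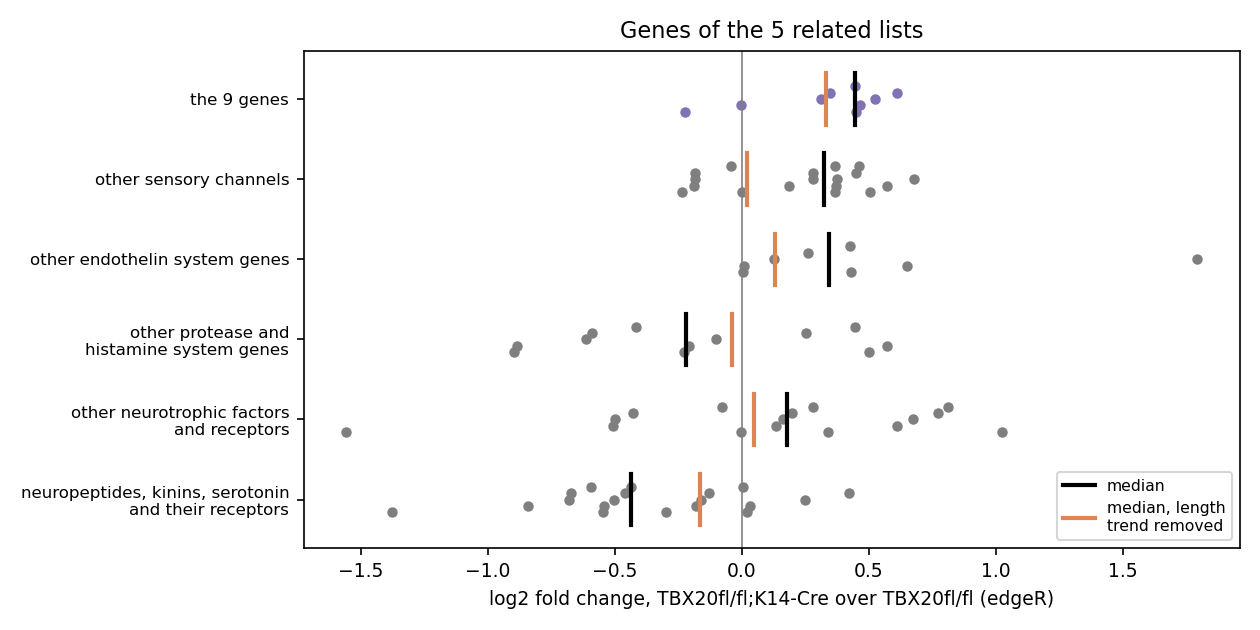
Log2 fold change from edgeR (horizontal axis, TBX20fl/fl;K14-Cre over TBX20fl/fl) of the 9 genes (violet) and of the genes of 5 related lists (grey), each point a gene, with the list median in black and the median after removal of the length trend in orange. The median of the 9 genes moves from 0.45 to 0.33, that of the other sensory channels from 0.32 to 0.02 and that of the neuropeptide, kinin and serotonin list from -0.44 to -0.16.

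The 6 members with a mean count of at least 50 were set against 13292 other genes by Pearson's r of log2 CPM over the 8 mice, as a description. Closest to Trpv4 were Cspg4 (r = 0.996), a proteoglycan gene of pericytes, and Pold1 (0.993), a subunit of DNA polymerase delta. In the list of 10 mural cell markers, which holds Cspg4, 5 were higher and 5 lower (median log2 fold change 0.07). With the length trend removed their median was 0.13, and 7 of 10 were higher. Closest to Trpv3 were Pdk1 (0.990) and Usp38 (0.983), and closest to Ednra were Cdc14a (0.991) and Spry4 (0.990). With the length trend removed, r stayed at 0.988 for Pold1 and 0.963 for Spry4 but was 0.782 for Cspg4, 0.871 for Pdk1, 0.692 for Usp38 and 0.682 for Cdc14a. Closest to Ednrb were the hair keratin-associated gene Krtap16-1 (0.959, and 0.807 with the length trend removed) and Tyw1 (0.944 and 0.955). Closest to F2rl1 were Zfp13 (0.952 and 0.952) and Eid2b (0.95 and 0.894), and closest to Edn1 were Arl2bp (0.948 and 0.731) and Fbln5 (0.938 and 0.932). Between these 6 members themselves r had a median of 0.46 over 15 pairs and ranged from -0.52 to 0.87, and the median was 0.28 with the length trend removed.

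Windows of 250 bases before annotated transcript starts were searched for AGGTGTG, the T-box consensus half-site, on both strands. RefSeq windows (GRCm38.p6) were at hand for 8 of the 9 genes, all but F2rl1, in 11 windows. Not all of them lie outside the gene: by the coordinates given above, the windows of Ednrb and Artn and 2 of the 4 of Hrh1 lie within it, and those of Trpv3 and Trpv4 and another of Hrh1 reach into it. The full 7 letters were in 0 of these 11 windows and in 5.10% of the 32851 windows of all genes. The inner 6 letters, GGTGTG, which the 7 contain, were searched after that result was known and were in 2 of the 8 genes, Trpv3 and Trpv4, against 18.3% of 27025 genes. The window of Trpv4, with 2 matches at bases -198 and -160 from the start, is shown in capitals where it matches, beside that of Ednra, the gene whose groups did not overlap in FPKM or on TMM-scaled CPM, which had none. Both are written 5′ to 3′ on the strand of the gene, which is the minus strand for each.
Trpv4, chr5:114658422-114658671: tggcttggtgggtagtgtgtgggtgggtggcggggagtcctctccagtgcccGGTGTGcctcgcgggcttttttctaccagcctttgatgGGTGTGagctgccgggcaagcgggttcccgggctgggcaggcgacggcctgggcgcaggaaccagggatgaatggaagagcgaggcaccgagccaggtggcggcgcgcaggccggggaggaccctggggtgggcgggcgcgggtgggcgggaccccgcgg
Ednra, chr8:77724453-77724702: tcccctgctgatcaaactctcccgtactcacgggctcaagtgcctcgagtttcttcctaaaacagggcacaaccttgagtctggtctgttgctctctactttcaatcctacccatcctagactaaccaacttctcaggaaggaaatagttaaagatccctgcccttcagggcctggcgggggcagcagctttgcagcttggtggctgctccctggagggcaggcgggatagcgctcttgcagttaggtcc
A match describes the letters of these windows and not binding.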

How the data were processed

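The authors sequenced poly(A)-selected RNA with single-end 50-base reads, filtered them with SOAPnuke and aligned them with HISAT. The program that counted reads and its use of strand are not given in the sources used here. The authors deposited 1 table with estimated counts (expected counts, not normalised, of which 69.0% above 0 were not whole within 0.001) and FPKM values per mouse. A further 16 columns of per-mouse values (TPM and normalised counts) and the authors' own fold changes and p-values were not used.

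Estimated counts were rounded, filtered at 10 or more over the 8 mice, scaled by TMM and compared with edgeR 4.0.16 (R 4.3.3), with Benjamini-Hochberg adjustment over all genes and a threshold of 0.05. FPKM values were compared with two-sided exact permutation tests over 70 assignments (smallest p 0.0286) and with limma 3.58.1 on log2(FPKM + 1) for the 15969 genes whose mean FPKM was 0.1 or more. Order of levels was tested by sign flips over 8 mice. DESeq2 1.42.0 served as an alternative. The length trend was a lowess curve (span 0.3) of each mouse's deviation in log2 CPM on implied transcript length, fitted where the mean count was 50 or more.

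Genes, lists and tests were chosen with earlier results of these data known. Named genes were the 9 members, the 2 genes with the smallest edgeR p in each list and the 2 genes most like each of the 6 members whose mean count was 50 or more. Single markers, genes below the count filter, Edn3, Plcb4 and St14 were named outside that rule, after their values were seen. Replicate numbers come from the labels. Deviations of same-numbered mice of the groups correlated at 0.405, 0.319, 0.331 and 0.160, and those of differently numbered mice at -0.518 to 0.426. By the criterion set, over 0.1 in every numbered pair, the block was run as an alternative, while the main tests are unpaired. The highest of these correlations, 0.426, was between TBX20fl/fl;K14-Cre mouse 4 and TBX20fl/fl mouse 1. The mice are different animals, and nothing states that mice of the same number were paired. The paper describes its TBX20fl/fl controls as littermates, but nothing states how the sequenced mice were spread over litters or days. The p-values compare the difference between the groups with the spread between these mice. Counting limits cover counting error only. Positions are given as in the deposited table (GRCm38) unless GENCODE is named.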

Additional observations from a re-analysis of the deposited data

Results flagged for a closer look

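Of 24 groups of 4 mice examined (the 9 genes and 3 ratios in each genotype), 3 held a mouse far from the others, where chance gives about 1 in 20 groups, or 1.2. Ednra was at 2.61 FPKM in TBX20fl/fl mouse 2 and at 5.83 to 6.08 FPKM in the other TBX20fl/fl mice. Artn was at 0.39 FPKM in TBX20fl/fl;K14-Cre mouse 4 against 0.21 to 0.24 in the other mice of that genotype. Artn was also at 0.32 FPKM in TBX20fl/fl mouse 4 against 0.10 to 0.12 in the other controls. The Artn values rest on 17.89 and 14 estimated counts.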

How the results depend on the processing

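Under the other normalizations, filters, blocks and left-out mice run with edgeR, 0 genes passed the threshold, while DESeq2's Wald test called 10 genes, none of the 9. The replicate block changed no call (for F2rl1 0.34, unadjusted p = 0.0685, and for Ednrb 0.47, unadjusted p = 0.0295, both with an edgeR adjusted p of 0.405). The log2 fold change of Edn1 turned from -0.0026 to 0.107 with the length trend removed, 0.101 with that and without TBX20fl/fl mouse 2, an alternative chosen after seeing the data, and 0.041 with the replicate block and length trend. Leaving out each mouse gave -0.24 to 0.19 for Edn1 (0.056 without TBX20fl/fl mouse 2, 0.079 without TBX20fl/fl mouse 3, 0.192 without TBX20fl/fl;K14-Cre mouse 1 and 0.053 without mouse 3 of that genotype). In limma, Edn1 was -0.051 on TMM-scaled CPM and -0.072 (without TBX20fl/fl;K14-Cre mouse 2) to 0.27 over left-out mice, and Trpv1 ranged from -0.12 to 0.035 and was 0.024 without TBX20fl/fl mouse 4 and 0.035 without TBX20fl/fl;K14-Cre mouse 3. The number of genes of the 9 without overlap, 2 in FPKM, was 1 on TMM-scaled CPM and 0 with the length trend removed, which was chosen after seeing the data. It ranged from 2 to 5 on leaving out each mouse, with 4 without TBX20fl/fl;K14-Cre mouse 1 (10.1% of all genes) and 5 without TBX20fl/fl mouse 4 (12.2%), against 5.45% with all mice. Over left-out mice the log2 ratio of Ednrb to Ednra ranged from -0.29 to 0.20 (0.0045 without TBX20fl/fl;K14-Cre mouse 4, 0.203 without TBX20fl/fl mouse 2), that of Trpv3 to Trpv4 from -0.50 to -0.12 and that of Edn1 to Ednra from -0.71 to -0.31. The cause of these shifts was not tested.

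Artn rests on 4 to 17.89 estimated counts a mouse, and had the largest standard error of the 9 genes. 4 mice a genotype allow no exact permutation p below 0.0286, which does not survive adjustment over all genes. The length trends of the mice, with the strongest in TBX20fl/fl mouse 2, and the hair follicle, melanocyte, neutrophil and mast cell markers, of which 0 were called, are given beside the results, and their part was not tested.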
